A study of Mus musculus with 6 samples.

Results

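The transcripts of 10 protein kinases that take cells into mitosis or hold them there until the chromosomes are attached were followed in mouse cells on the way to pluripotency. The 10 genes, Cdk1, Wee1, Plk1, Aurka, Nek2, Ttk, Bub1, Bub1b, Melk and Pbk, were found by their symbols among the 20325 genes listed in each library, and all 10 passed the filter on low counts. They were chosen by name for their shared role, with the measured difference between the populations below already known, so their differences are given as a description and count as no independent evidence that mitotic genes differ.

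The cells were neural stem cells isolated from mice at postnatal day 4, of a mixed 129/Black 6 background, kept frozen after expansion. Every mouse was homozygous for a doxycycline-inducible Oct4-Sox2-c-Myc, Klf4 cassette (Stemcca) at ColA1 and heterozygous for the rtta activator at Rosa26, so both groups carry both alleles. Doxycycline was given until day 7 on gelatin, and the cells were then fixed, stained, sorted by Nanog and E-cadherin protein, and reversed from crosslinking before RNA isolation. The comparison sets 3 libraries of Nanog+E-cadherin+ cells against 3 libraries of Nanog+E-cadherin- cells, and asks how Nanog-expressing reprogramming cells with and without the epithelial adhesion protein E-cadherin (Cdh1) differ. All cells had received the 4 factors and doxycycline, no untreated culture was analysed here, and the labels do not say whether replicates came from separate animals or cultures.

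Cdk1 bound to cyclin A or B phosphorylates the many proteins that rebuild the cell for mitosis. Wee1 holds Cdk1 inactive by phosphorylating it, while Plk1 and Aurka help release this brake and build the spindle poles. The spindle checkpoint kinases Ttk and Bub1, and the kinase-like Bub1b, delay anaphase until every kinetochore is attached to the spindle. Transcripts of such genes are low in resting and early-cycle cells and build up toward mitosis.

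The libraries held between 8851110 and 39630916 expected counts, RSEM's estimates of reads per gene. The sort was visible for Cdh1, at 104, 143 and 139 CPM (counts scaled to a common library size, with TMM factors) in Nanog+E-cadherin+ libraries 1 to 3 and at 16.5, 20.3 and 15.4 CPM in Nanog+E-cadherin- libraries 1 to 3, while the libraries overlapped for Nanog (101 to 131 CPM against 78.6 to 135 CPM). Of the neural stem markers, Sox2, which the cassette also encodes, stood at 379 to 523 CPM against 431 to 574 CPM, and Nes at 86.1 to 346 CPM against 105 to 311 CPM, while Msi1 did not overlap, at 75.1 to 89.4 CPM against 116 to 128 CPM. Libraries with the same replicate number deviated together, as given with the processing, so the replicate number was also fitted as a block. Nanog+E-cadherin- replicates 2 and 3 stood apart in 6 genes marked by earlier work on these libraries as raised with background sequence, with summed levels of 824 and 467 CPM of library totals, against 1.41 to 83.4 CPM in the other 4 libraries. Both libraries numbered 2 had almost no Y-linked transcripts (1.53 and 0 CPM over 4 genes, against 54.1 to 172 CPM in the others). Both libraries numbered 1 had a shorter mean transcript length weighted by TPM (1527 and 1582 bases, against 1896 to 2113 bases). The part of these differences in the results on the kinases was not tested, apart from the values given without those libraries and within pairs of equal replicate number.

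The promoters of the kinases are shown first, as a description, and a link between promoter letters and the measured differences was not tested. Cell cycle genes whose transcripts peak in G2 and M phase often carry a CHR element near the start site, known as a binding site of the MuvB complexes (DREAM, B-Myb-MuvB and FoxM1), with CCAAT boxes, bound by NF-Y, upstream of it. RefSeq windows of 250 bases before and 50 after the start site (build GRCm38.p6) were matched for 8 of the 10 genes, all but Pbk and Wee1. The letters TTTGAA (CHR) and CCAAT were searched on both strands, and CHR and CCAAT matches did not overlap. No other form of either element was searched, so a window without these letters may still hold one. The 5 kinases that hold both are printed with Nek2, which has CCAAT letters only, each 5′ to 3′ in the direction of the gene with the matched letters in capitals (TTCAAA and ATTGG are the same letters on the other strand):
Cdk1 (chr10:69352863-69353162, minus strand): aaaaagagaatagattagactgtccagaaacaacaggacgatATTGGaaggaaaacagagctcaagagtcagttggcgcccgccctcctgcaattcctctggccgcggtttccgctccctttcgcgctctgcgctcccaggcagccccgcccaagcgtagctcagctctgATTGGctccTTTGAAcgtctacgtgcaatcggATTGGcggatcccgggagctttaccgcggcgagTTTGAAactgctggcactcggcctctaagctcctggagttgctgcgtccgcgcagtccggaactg
Plk1 (chr7:122159185-122159484, plus strand): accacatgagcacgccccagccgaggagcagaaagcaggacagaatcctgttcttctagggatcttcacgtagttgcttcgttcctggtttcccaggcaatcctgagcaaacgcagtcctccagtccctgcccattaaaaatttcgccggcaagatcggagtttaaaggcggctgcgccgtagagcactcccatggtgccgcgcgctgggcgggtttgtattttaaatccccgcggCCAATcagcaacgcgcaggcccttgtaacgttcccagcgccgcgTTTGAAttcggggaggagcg
Aurka (chr2:172370521-172370820, minus strand): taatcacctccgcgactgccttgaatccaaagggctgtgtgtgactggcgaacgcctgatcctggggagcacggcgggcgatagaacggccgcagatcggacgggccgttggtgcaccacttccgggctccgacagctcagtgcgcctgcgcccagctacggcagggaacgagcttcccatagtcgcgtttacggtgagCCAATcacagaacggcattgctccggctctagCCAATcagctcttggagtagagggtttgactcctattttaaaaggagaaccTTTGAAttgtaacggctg
Ttk (chr9:83834439-83834738, plus strand): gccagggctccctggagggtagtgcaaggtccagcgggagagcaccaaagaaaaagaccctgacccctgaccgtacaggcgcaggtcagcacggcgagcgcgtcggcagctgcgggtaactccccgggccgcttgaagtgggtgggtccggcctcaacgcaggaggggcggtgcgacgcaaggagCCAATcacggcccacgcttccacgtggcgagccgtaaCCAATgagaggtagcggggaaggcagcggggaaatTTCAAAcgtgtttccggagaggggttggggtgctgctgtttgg
Bub1b (chr2:118597961-118598260, plus strand): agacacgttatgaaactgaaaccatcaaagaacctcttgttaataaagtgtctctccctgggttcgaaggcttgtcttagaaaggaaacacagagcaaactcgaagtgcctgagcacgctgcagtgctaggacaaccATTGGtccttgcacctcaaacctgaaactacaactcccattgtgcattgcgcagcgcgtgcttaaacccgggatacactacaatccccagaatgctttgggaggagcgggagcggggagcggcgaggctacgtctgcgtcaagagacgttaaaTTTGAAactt
Nek2 (chr1:191821223-191821522, plus strand): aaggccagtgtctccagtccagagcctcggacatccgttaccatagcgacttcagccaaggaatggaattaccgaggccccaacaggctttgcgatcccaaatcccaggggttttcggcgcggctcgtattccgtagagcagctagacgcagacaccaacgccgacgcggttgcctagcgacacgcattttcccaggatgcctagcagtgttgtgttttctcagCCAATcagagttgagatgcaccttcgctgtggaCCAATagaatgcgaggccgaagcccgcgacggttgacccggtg

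The CHR letters were found in 5 of the 8 kinase windows (Cdk1, Plk1, Aurka, Ttk and Bub1b), against 17.9% of all 32851 promoter windows. The CCAAT letters were found in 7 of the 8, all but Melk, against 37.4% of all windows, and 5 of the 8 held both, against 6.95%. Cdk1 held CHR letters at 2 places, the one nearer the start site beginning 15 bases before it. In Plk1, Aurka, Bub1b and Ttk the CHR letters began 30, 32, 40 and 7 bases after the start base. The nearest CCAAT letters upstream began 33 bases before the second CHR match in Cdk1, 44 before it in Plk1, 51 in Aurka, 35 in Ttk and 153 in Bub1b. Neither TTTCCCGC nor TTTGGCGC, forms of the E2F site of S-phase genes, was found in any of the 8 windows (1.07% and 0.514% of all windows). No other form of the E2F site was searched, so a window without these letters may still hold one. The Cdk1 window printed above holds the similar letters TTTCGCGC, which were not counted. Of 17 S-phase genes with a window, 3 held TTTCCCGC, 5 held TTTGGCGC, 3 held the CHR letters and 12 held the CCAAT letters. Of 11 mitotic entry partners 2 held the CHR letters and 9 the CCAAT letters, and of 15 checkpoint partners 8 and 7 did. For 10 Aurora and Polo partners the counts were 4 and 4, and for 9 other Nek kinases 3 and 3. For 11 interphase kinases they were 2 and 4, and for 8 phosphatase genes 2 and 5. Some of these genes have more than 1 window, and a gene was counted if any of its windows held the letters. Counted so, 20.2% of all 27025 genes held the CHR letters and 41.1% the CCAAT letters. The kinases were chosen for their role in mitosis, so a share of these letters above that of all windows is no independent result. Short runs of letters occur often, and a match says nothing about whether a factor binds there in these cells.

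**Figure D1:**
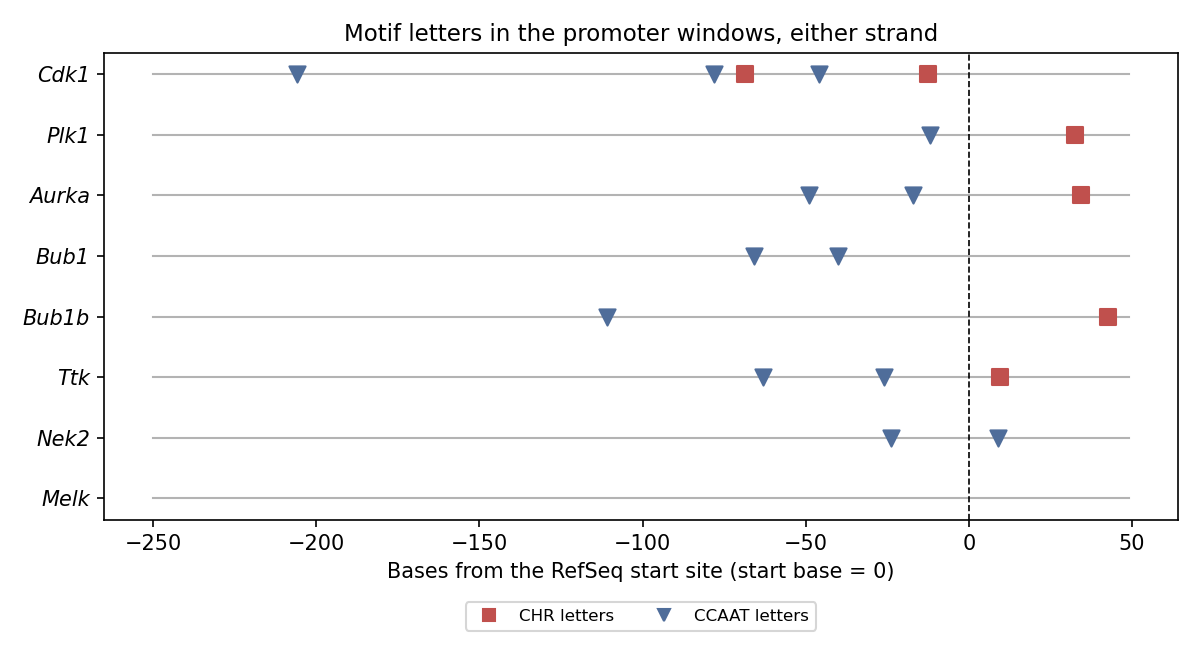
Positions of CHR letters (TTTGAA, squares) and CCAAT letters (triangles) on either strand in the 8 promoter windows, in bases from the RefSeq start site, over 250 bases before it and 50 after. In Plk1, Aurka, Ttk and Bub1b the CHR letters lie just after the start base, while Bub1 and Nek2 hold CCAAT letters only and Melk holds neither.

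All 10 kinases were higher in Nanog+E-cadherin+ than in Nanog+E-cadherin- cells within each pair of libraries with the same replicate number, as were 18.9% of the 13460 genes tested. For 9 of the 10 the groups did not overlap in CPM, against 3.74% of genes higher without overlap among all tested. With the replicate number as a block, 4 of the 10 passed an adjusted p of 0.05 (edgeR's quasi-likelihood F-test, Benjamini-Hochberg over all genes), namely Cdk1, Plk1, Aurka and Nek2, where 0.215% of all genes were called higher and 0.305% in either direction. With group as the only term 0 of the 10 passed, as did 0% of all genes, while 9 of the 10 had an unadjusted p under 0.05 and were higher, against 1.08% of all genes (359 genes in either direction). In DESeq2's Wald test 1 of the 10, Nek2, passed with group only (0.156% of all genes) and 9, all but Wee1, with the block (2.26% of all genes). That group-only test gave 7834 of the 13460 genes, Ttk and Wee1 among them, no adjusted p. Among genes that had one, the share called is thus higher than 0.156%. With group only edgeR's adjusted p was 0.9999 for each of the 10. The median log2 fold change of the 10 was 1.03 with group only and 1.03 with the block, against -0.01 and 0.02 over all genes tested. In bulk RNA, more cells that express a gene and more RNA of it per cell cannot be told apart.

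**Figure D2:**
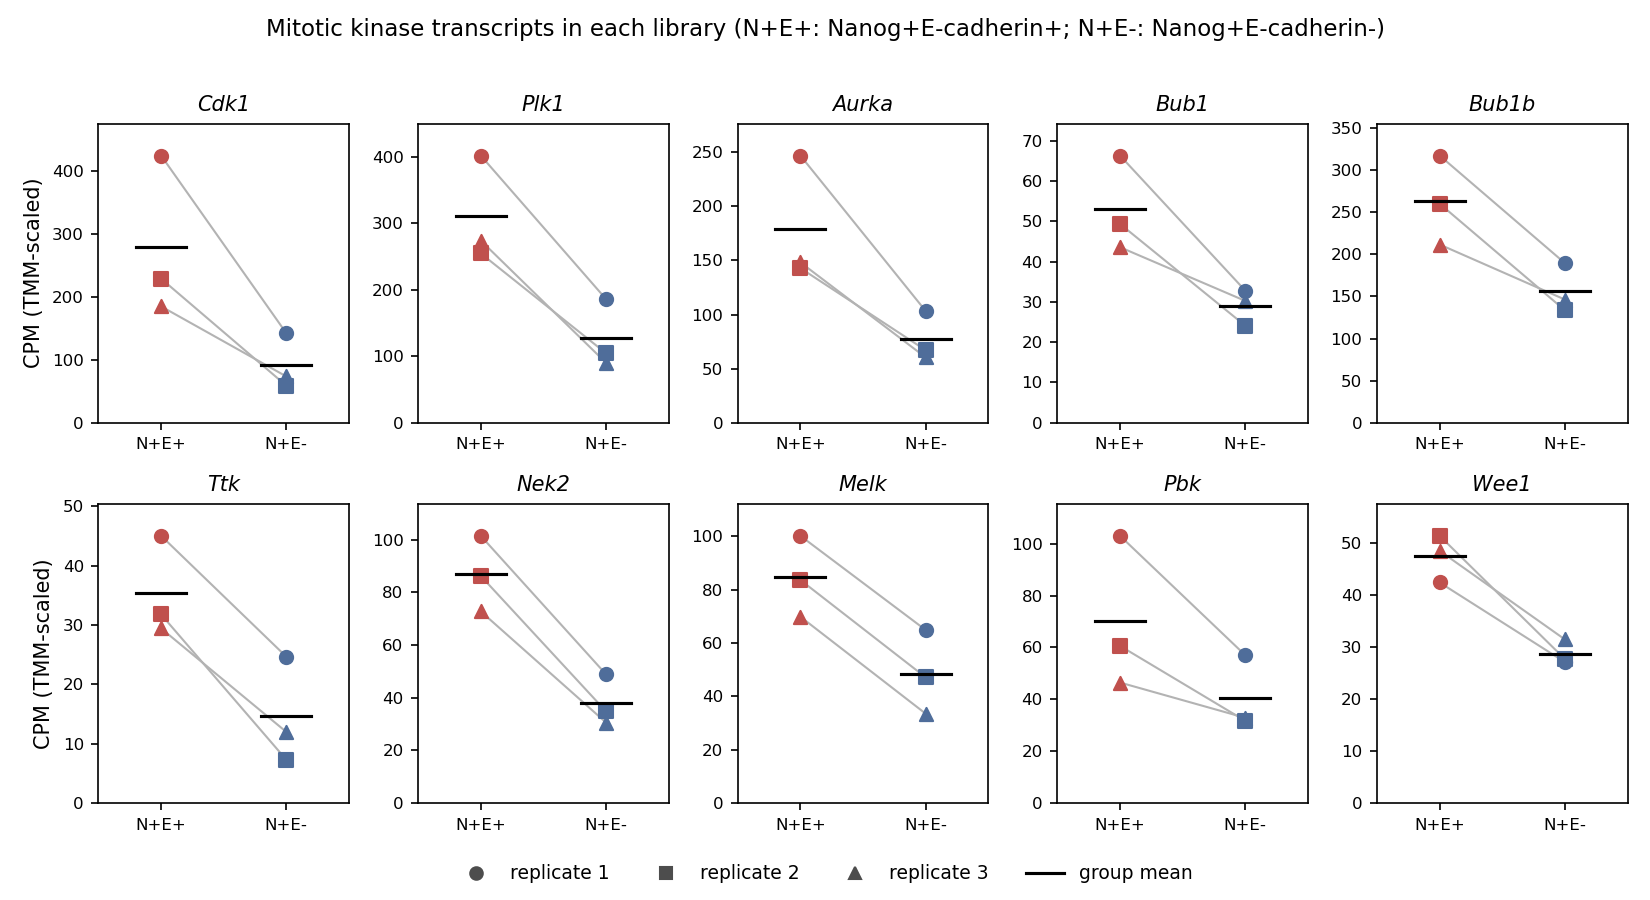
CPM (TMM-scaled) of each kinase in every library, 1 panel per gene with its own axis from 0, Nanog+E-cadherin+ (N+E+) left and Nanog+E-cadherin- (N+E-) right; marker shape gives the replicate number, grey lines join equal numbers and black bars are group means. Every grey line falls to the right, and Pbk is the gene whose groups overlap.

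Cdk1, at the centre of mitotic entry, showed the largest fitted difference of the 10 in both fits. It stood at 425, 229 and 185 CPM in Nanog+E-cadherin+ replicates 1 to 3, against 142, 58.9 and 73.6 CPM in Nanog+E-cadherin- replicates 1 to 3. The groups did not overlap, and replicate 1 was the highest library of each. The fold was 2.99, 3.90 and 2.52 in the pairs numbered 1 to 3. In edgeR's test with the block Cdk1 rose, with a log2 fold change of 1.62 ± 0.16 (SE, adjusted p = 0.0143), and with group only the value was 1.61 ± 0.45 (SE, adjusted p = 0.9999).

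Wee1, which restrains Cdk1 by phosphorylation, had the smallest fitted difference of the 10. It stood at 42.5, 51.5 and 48.6 CPM in Nanog+E-cadherin+ libraries, against 27.1, 27.7 and 31.5 CPM in Nanog+E-cadherin- replicates 1 to 3. In CPM its values were the least spread of the 10 relative to the mean in each group, and replicate 1 was the lowest library of each group, where it was the highest for each of the other 9. This depended on the scale: in TPM Wee1 was the most spread of the 10 in Nanog+E-cadherin+ and second to Ttk in Nanog+E-cadherin- libraries, Nek2 too had replicate 1 lowest in both groups, and only Cdk1, Aurka and Pbk had it highest in both. The log2 fold change was 0.72 ± 0.19 (SE) with the block (adjusted p = 0.226, edgeR) and 0.72 ± 0.22 with group only, and Wee1 did not pass in either. On the TPM scale (RSEM's level per transcript length, scaled to 1 total in every library) Wee1 was the gene whose groups overlapped, at 16.1, 32.1 and 27.6 TPM against 11.04, 17.2 and 20.7 TPM. The ratio of Cdk1 to Wee1 in TPM was 12.0, 5.35 and 4.57 in Nanog+E-cadherin+ libraries, against 6.30, 2.55 and 2.80 in Nanog+E-cadherin- replicates 1 to 3. It was higher with E-cadherin in each pair, although the groups overlapped.

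Plk1, the Polo-like kinase that promotes mitotic entry and spindle pole maturation, had the highest level per length of the 10 in both groups. It stood at 402, 255 and 274 CPM in Nanog+E-cadherin+ libraries, against 186, 104 and 90.1 CPM in Nanog+E-cadherin- replicates 1 to 3, with no overlap. Per length it was nearly level in Nanog+E-cadherin+ libraries, at 239, 248 and 244 TPM. In Nanog+E-cadherin- replicates 1 to 3 it varied more, at 118.5, 101 and 92.9 TPM. Plk1 rose with the block, by a log2 fold change of 1.33 ± 0.15 (SE, adjusted p = 0.0168, edgeR).

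Aurka, the centrosomal Aurora kinase that activates Plk1, stood at 247, 143 and 148 CPM in Nanog+E-cadherin+ libraries, against 103, 67.0 and 60.4 CPM in Nanog+E-cadherin- replicates 1 to 3. All Nanog+E-cadherin+ libraries lay above all others, with folds of 2.39, 2.13 and 2.46 in the 3 pairs. Aurka rose with the block, with a log2 fold change of 1.22 ± 0.14 (SE, adjusted p = 0.0178, edgeR). It overlaps the gene Cstf1 in RefSeq, so some reads may belong to either, and Cstf1 had a log2 fold change of 0.38 with the block. The ratio of Plk1 to Aurka in TPM ran from 1.40 to 1.59 in Nanog+E-cadherin+ and from 1.29 to 1.55 in Nanog+E-cadherin- libraries.

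Nek2, which separates the centrosomes before the spindle forms, stood at 101, 86.3 and 72.8 CPM in Nanog+E-cadherin+ libraries, against 48.9, 34.8 and 30.5 CPM in Nanog+E-cadherin- replicates 1 to 3. Its folds in the 3 pairs, 2.08, 2.48 and 2.38, were close to each other, and the groups did not overlap. Nek2 rose with the block, by a fitted 2.30-fold (SE 0.17 on the log2 scale, adjusted p = 0.0371, edgeR). Its annotated span overlaps the pseudogene Gm20585 in RefSeq. Of the 9 other Nek kinases tested, 3 were fitted higher with the block, their median log2 fold change was -0.04, and none passed. The mitotic relatives Nek6 and Nek7 had log2 fold changes of 0.14 ± 0.17 and 0.22 ± 0.25 (SE, block).

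Ttk (Mps1), the kinase that starts checkpoint signalling at unattached kinetochores, was among the least abundant of the 10 and varied most between pairs. It stood at 45.0, 31.8 and 29.4 CPM in Nanog+E-cadherin+ libraries, against 24.7, 7.27 and 12.0 CPM in Nanog+E-cadherin- replicates 1 to 3. The groups did not overlap, and the lowest library, Nanog+E-cadherin- replicate 2, held 84.0 expected counts. The folds in the 3 pairs were 1.83, 4.37 and 2.46. The log2 fold change was 1.41 ± 0.28 (SE, block), the second largest of the 10, and did not pass (adjusted p = 0.122, edgeR). In edgeR with the block Ttk passed without both libraries numbered 1 (adjusted p = 0.00807) or 3 (adjusted p = 0.00404), and without both numbered 2 its log2 fold change was 1.08 (adjusted p = 0.144). The log2 fold change was 1.72 ± 0.43 without number 1 and 1.44 ± 0.26 without number 3 (SE). These fits have fewer libraries to estimate the spread, so their adjusted p is not comparable with that from all libraries.

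Bub1 and Bub1b, which sit together at the kinetochore, showed smaller differences. Bub1, which recruits other checkpoint proteins, stood at 66.3, 49.3 and 43.6 CPM in Nanog+E-cadherin+ libraries, against 32.8, 24.1 and 30.2 CPM in Nanog+E-cadherin- replicates 1 to 3. Bub1b (BubR1), part of the complex that inhibits the anaphase-promoting complex, stood at 317, 260 and 212 CPM in Nanog+E-cadherin+ libraries, against 190, 134 and 146 CPM in Nanog+E-cadherin- replicates 1 to 3. Neither gene overlapped between groups, and in both the pair numbered 3 had the smallest fold (1.44 for Bub1 and 1.45 for Bub1b). Their log2 fold changes with the block were 0.86 ± 0.20 and 0.75 ± 0.14 (SE), and neither passed (adjusted p = 0.177 and 0.113, edgeR). Bub1b transcripts exceeded those of Bub1 by a TPM ratio of 5.67 to 6.25 in Nanog+E-cadherin+ and of 5.73 to 6.85 in Nanog+E-cadherin- libraries, so the proportion of the pair overlapped between groups.

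Melk and Pbk, kinases known in mouse from dividing neural progenitors, also showed differences that did not pass. Melk stood at 100.2, 83.6 and 69.8 CPM in Nanog+E-cadherin+ libraries, against 64.9, 47.1 and 33.5 CPM in Nanog+E-cadherin- replicates 1 to 3, with the lowest Nanog+E-cadherin+ library just above the highest Nanog+E-cadherin- library. Pbk (TOPK) stood at 103, 60.6 and 46.5 CPM in Nanog+E-cadherin+ libraries, against 57.0, 31.7 and 32.9 CPM in Nanog+E-cadherin- replicates 1 to 3. Pbk overlapped between groups in CPM, its Nanog+E-cadherin+ replicate 3 lying under Nanog+E-cadherin- replicate 1. Per length the Pbk groups did not overlap, at 82.7, 79.8 and 55.8 TPM against 49.1, 41.5 and 45.7 TPM. Their log2 fold changes with the block were 0.84 ± 0.17 for Melk and 0.76 ± 0.18 for Pbk (SE, adjusted p = 0.133 and 0.179, edgeR). With group only the value for Pbk was 0.79, and 0.40 without Nanog+E-cadherin+ replicate 1.

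**Figure D3:**
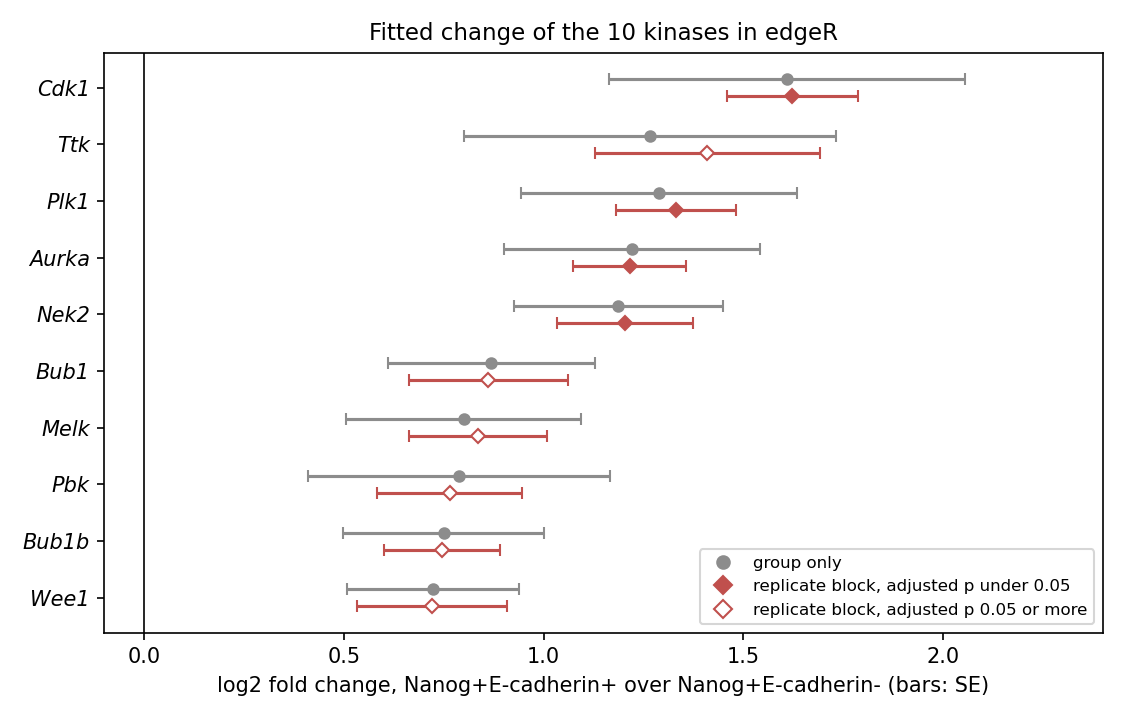
Fitted log2 fold change of each kinase, Nanog+E-cadherin+ over Nanog+E-cadherin-, with SE bars, from edgeR with group only (grey circles) and with the replicate block (red diamonds, filled where the adjusted p over all genes is under 0.05). Estimates of both fits lie close together for each gene, from 0.72 for Wee1 to 1.62 for Cdk1 with the block, and the SE is smaller with the block.

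The calls depended on the replicate block, while the estimates differed little between the 2 fits. The fitted fold with the block ran from 1.65 for Wee1 to 3.08 for Cdk1. Within pairs the median log2 ratio of the 10 was 0.94, 1.06 and 1.16 in the pairs numbered 1 to 3, and over all genes it was 0.005, -0.02 and 0.04. In the pair numbered 1, where the background-sequence genes were lowest, 5 of the 10 were at least 2-fold higher with E-cadherin, against 2.97% of all genes. In the pairs numbered 2 and 3, 6 of the 10 were, against 6.60% and 13.9% of all genes. Without both Nanog+E-cadherin- libraries with background sequence, which leaves replicate 1 alone in its group and assumes that it varies like the others, all 10 were still fitted higher with group only, at a median of 0.72, and 2 of the 10, Nek2 and Wee1, had an unadjusted p under 0.05, as did 1.44% of all genes. The log2 fold changes in that fit were 0.98 for Cdk1, 0.74 for Plk1, 0.80 for Aurka, 0.83 for Nek2, 0.69 for Bub1, 0.47 for Bub1b, 0.52 for Ttk, 0.38 for Melk and 0.30 for Pbk. Each of these lay below its group-only value with every library, Nek2 at 1.19 and Bub1 at 0.87 there. Only Wee1 was higher, at 0.81 against 0.72.

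The order of abundance and the spread between replicates were read per length. The groups of 9 of the 10 kinases did not overlap in TPM (3.19% of all genes were higher without overlap), but it was Wee1 and not Pbk that overlapped. Summed over the 10, the level was 940, 1011 and 849 TPM in Nanog+E-cadherin+ libraries, against 471, 431 and 452 TPM in Nanog+E-cadherin- replicates 1 to 3. In CPM the same sums were 1850, 1250 and 1130 against 877, 536 and 541. Replicate 1 led both groups in CPM, whereas in TPM it led the Nanog+E-cadherin- libraries by little and was not the highest of the Nanog+E-cadherin+ libraries. In Nanog+E-cadherin+ cells the order by mean TPM was Plk1 (244 ± 4.78), Cdk1 (164 ± 34.4), Aurka (162 ± 8.69), Bub1b (125 ± 22.4), Pbk (72.8 ± 14.8), Melk (50.9 ± 9.04), Nek2 (47.7 ± 8.65), Wee1 (25.3 ± 8.21), Ttk (21.2 ± 2.01) and Bub1 (21.1 ± 2.63; SD, n = 3). Of neighbours in that order, Cdk1 and Aurka, Pbk and Melk, Melk and Nek2, Wee1 and Ttk, and Ttk and Bub1 had overlapping libraries. In Nanog+E-cadherin- cells Plk1 (104 ± 13.1 TPM) again led, but Bub1b (79.5 ± 9.20 TPM) and Aurka (74.7 ± 2.22 TPM) came before Cdk1 (57.1 ± 12.9 TPM; SD, n = 3), and Ttk (8.98 ± 3.12 TPM) had the lowest mean. There Bub1b and Aurka, Cdk1 and Pbk, Wee1 and Bub1, and Bub1 and Ttk had overlapping libraries, and in replicate 1 Ttk lay above Bub1 and Wee1. Cdk1 made up 14.9 to 20.6% of the summed TPM of the 10 in Nanog+E-cadherin+ libraries and 10.1 to 14.8% in Nanog+E-cadherin- libraries. Bub1b made up 11.9 to 14.9% against 15.2 to 19.9%. Over all 6 libraries the mean TPM of Plk1 was above that of 95.05% of genes with a value above 0, and that of Ttk above 58.9%.

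**Figure D4:**
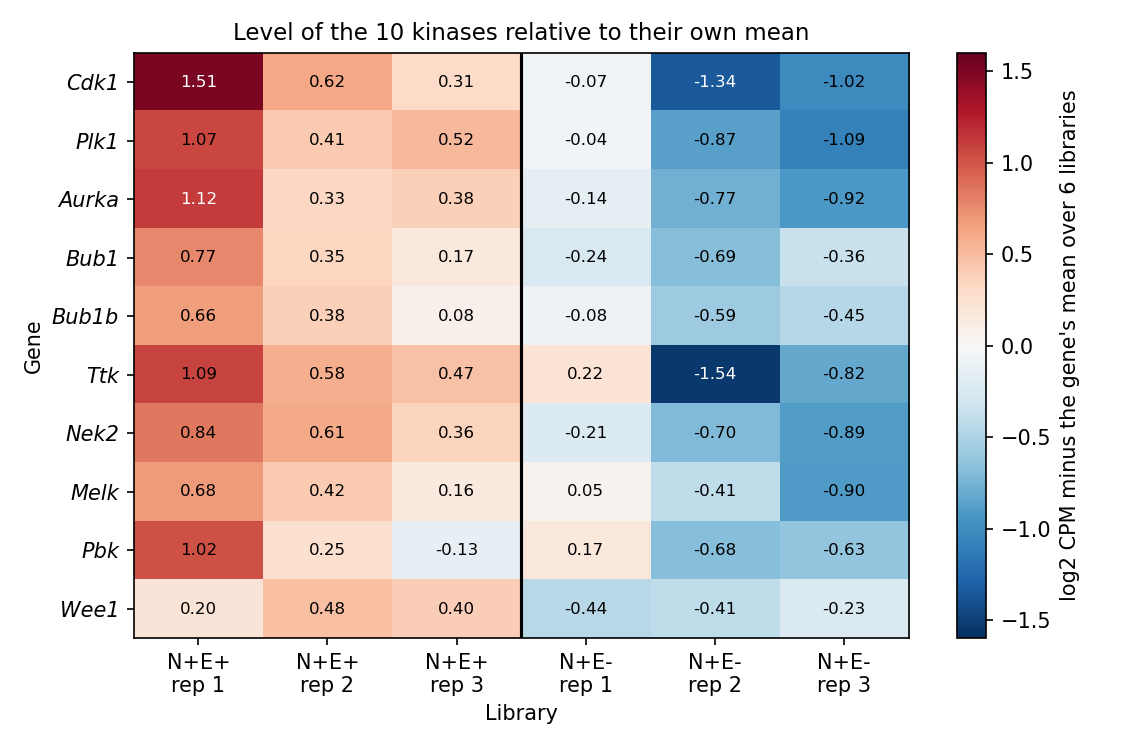
Each kinase (rows) in each library (columns, Nanog+E-cadherin+ left of the black line), as log2 CPM minus the gene's own mean over the 6 libraries; red is above and blue below that mean. All kinases but Wee1 are highest in Nanog+E-cadherin+ replicate 1, while Wee1 is at 0.20 there and at 0.48 and 0.40 in replicates 2 and 3.

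In CPM 9 of the kinases followed one profile and Wee1 less so. Over the 6 libraries, which share the group difference and the replicate numbers, the median Pearson r of a kinase's log2 CPM with the other 9 was 0.90 to 0.97 for those 9 and 0.71 for Wee1. For deviations from the group means it was 0.77 to 0.91 for the 9 and -0.71 for Wee1, which is a description over few libraries. The 10 genes outside the set whose log2 CPM was most like the mean profile of the 10 kinases (r from 0.98 to 0.99 over 6 libraries, 12572 genes compared) were Tpst2, Fam83d, Bub3, Pbx2, Tmem14a, Aurkb, Tm9sf1, Dbf4, Arl6ip1 and Ints9. Among these, Fam83d, Bub3, Aurkb and Arl6ip1 rose with the block, with log2 fold changes of 1.30, 1.26, 1.22 and 1.04 (adjusted p = 0.0318, 0.0210, 0.0300 and 0.0318, edgeR). Of all genes 0.215% were called higher. All 10 genes were picked by a profile that holds the group difference, so being higher follows from the choice and is no independent evidence. Wee1 was most like Mpzl1, Usp45 and Zdhhc15 (r = 0.98 each), none of which passed.

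The partners of the kinases in mitotic entry were mostly fitted higher. Of 15 tested, 14 had a positive estimate with the block, as did 51.9% of all genes, the median being 0.56 on the log2 scale. With the block 2 passed, both higher, against the 0.215% of all genes called higher. These were cyclin B1 (Ccnb1), the activating subunit of Cdk1, at 423, 283 and 225 CPM in Nanog+E-cadherin+ libraries, against 176, 99.1 and 139 CPM in Nanog+E-cadherin- replicates 1 to 3 (log2 fold change 1.16 ± 0.18 (SE), adjusted p = 0.0470), and Gtse1, a microtubule-binding protein of G2 and M phase (0.95 ± 0.14 (SE), adjusted p = 0.0371; edgeR). Cdc25b and Cdc25c, phosphatases that remove the mark set by Wee1, had log2 fold changes of 0.64 ± 0.14 and 0.21 ± 0.27 (SE). The Wee1-related kinase Pkmyt1, which also restrains Cdk1, had 0.68 ± 0.20, and the transcription factor Foxm1, which drives G2 and M genes, 0.88 ± 0.16 (SE), and none of these 4 passed. Cyclin B2 (Ccnb2), named after its values were seen, stood at 214, 164 and 138 CPM against 182, 185 and 142 CPM, with a log2 fold change of 0.01 ± 0.15 (SE, block).

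The checkpoint and kinetochore partners all had a positive estimate, 17 of 17 tested against 51.9% of all genes, the median being 0.72 (log2, block). Of these, 2 rose with the block, against 0.215% of all genes. Bub3, the binding partner of Bub1 and Bub1b, stood at 339, 201 and 176 CPM in Nanog+E-cadherin+ libraries, against 155, 68.5 and 82.4 CPM in Nanog+E-cadherin- replicates 1 to 3, without overlap (log2 fold change 1.26 ± 0.15 (SE), adjusted p = 0.0210, edgeR). Spc25, a subunit of the Ndc80 complex to which Ttk binds, had 1.69 ± 0.26 (SE, adjusted p = 0.0495, edgeR). Mad2l1 and Cdc20, which form the inhibitory complex with Bub1b, had log2 fold changes of 0.38 ± 0.17 and 0.41 ± 0.14 (SE), overlapped between groups and did not pass. Knl1, listed as Casc5 and the kinetochore scaffold of Bub1 and Bub1b, was low at 6.51 to 9.86 CPM against 3.81 to 5.85 CPM, and did not pass.

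Of 14 partners and relatives of the Aurora and Polo kinases tested, 13 had a positive estimate, against 51.9% of all genes, the median being 0.71 (log2, block). Aurkb, the Aurora kinase of the centromere, and its scaffold Incenp rose with the block, by log2 fold changes of 1.22 ± 0.16 and 1.09 ± 0.16 (SE, adjusted p = 0.0300 and 0.0371, edgeR). Tpx2, the spindle protein that activates Aurka, had 0.67 ± 0.14, and Plk4, the kinase of centriole duplication, 0.78 ± 0.27 (SE), and neither passed.

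Genes of other cycle phases were set beside these, and no difference between lists was tested. All 21 S-phase genes were fitted higher at a median log2 fold change of 0.57 with the block, close to that of the mitotic entry partners, and none passed, among them Pcna, the replication clamp (0.74 ± 0.14 (SE), adjusted p = 0.0978), and the helicase subunit Mcm5 (0.58 ± 0.16 (SE), adjusted p = 0.264, edgeR). Of 11 interphase kinases and their activators, 9 were fitted higher, at a median of 0.25, and none passed. Cdk2 and Cdk4, relatives of Cdk1 that act before mitosis, had log2 fold changes of 0.27 ± 0.16 and 0.25 ± 0.14, and the checkpoint kinase Chek1 one of 0.65 ± 0.26 (SE, block). Of 12 phosphatase genes that reverse mitotic phosphorylation 9 were fitted higher, at a median of 0.10, and none passed. Of all genes 51.9% were fitted higher with the block, at a median of 0.02. With group only none of the genes in these lists passed, and over all lists 6 passed with the block.

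**Figure D5:**
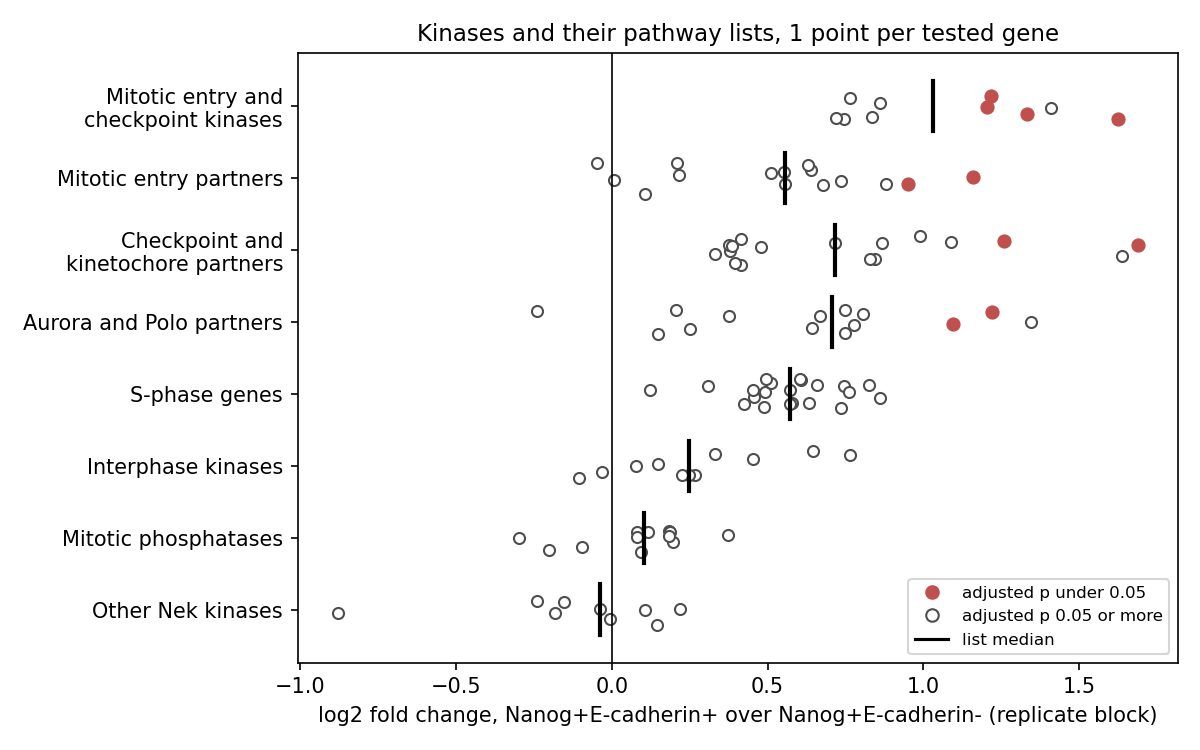
Log2 fold change with the replicate block (Nanog+E-cadherin+ over Nanog+E-cadherin-), 1 point per tested gene, for the 10 kinases (top row) and 7 pathway lists; filled points have an adjusted p under 0.05 over all genes and black bars are list medians. The medians run from 1.03 for the kinases to -0.04 for the other Nek kinases.

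Markers of other cell types differed between libraries too. Of 7 neuron markers tested 6 were fitted lower with E-cadherin, with summed levels of 221 to 981 CPM over the 8 genes found in Nanog+E-cadherin+ and 362 to 1335 CPM in Nanog+E-cadherin- libraries. Each sum was lower with E-cadherin in its pair and highest in the libraries numbered 1, and Gad1 was at 0 in Nanog+E-cadherin- replicates 2 and 3. Tubb3, a neuronal tubulin, was called lower with the block (log2 fold change -1.27 ± 0.17 (SE), adjusted p = 0.0370, edgeR), although its groups overlapped. Dcx, Gad2 and Snap25 were lower without overlap, as were 3.25% of all genes, and none of these 3 passed. Of 7 neural stem markers 7 were fitted lower with the block and none passed, while their sums, mostly Vim, overlapped at 1855 to 4374 CPM against 2140 to 4105 CPM. Msi1, the neural stem marker without overlap, had a log2 fold change of -0.61 ± 0.15 (SE, block, adjusted p = 0.188, edgeR). Astrocyte markers were fitted higher in 5 of 5, with overlapping sums of 132 to 1079 CPM against 114 to 708 CPM. Oligodendrocyte sums (82.4 to 160 CPM against 79.1 to 204 CPM) and fibroblast sums (220 to 1924 CPM against 317 to 1371 CPM) also overlapped. With the block 4 of 6 oligodendrocyte markers were fitted higher, at a median log2 fold change of 0.10. Of 6 fibroblast markers 1 was, at a median of -0.62, and none of either list passed. Microglia and macrophage markers summed to 6.43 to 9.11 CPM against 4.42 to 14.4 CPM, with Ptprc and Aif1 at 0 in all 3 Nanog+E-cadherin- libraries. The part of these markers in the differences of the kinases was not tested.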

How the data were processed

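RNA-seq was measured in 6 libraries, 3 of each sorted population, grouped and numbered by their titles. Per the labels' protocols the library kit was Illumina's TruSeq RNA. Bowtie, RSEM 1.2.4 and build mm9 appear in the submitters' processing notes; their settings and strand use were not given there. Per the file headers the authors deposited an expected count, a TPM and an FPKM value per gene; the authors' expected counts were rounded to whole numbers for tests, the authors' TPM values give levels per length, and FPKM was not used. RSEM divides reads shared between genes. The test was edgeR 4.0.16 (R 4.3.3) on 13460 genes kept by filterByExpr (at least 10 counts, 15 in total), TMM-scaled. It had 1 term, the group, in its quasi-likelihood test, with Benjamini-Hochberg adjustment. Its p-values set the group difference against the spread between these libraries, which may be technical. Where the block was fitted, the difference was set against the spread left within pairs. A gene at 5 CPM had 44.3 counts in the shallowest library.

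Pairing was checked across genes: deviations from group means correlated at 0.71, 0.38 and 0.43 for equal replicate numbers and at -0.58 to 0.09 for unequal ones, above the limit of 0.1 in every pair, so the fit with the replicate block stands beside each result whose call it changes. Within each group a gene's deviations sum to 0, so positive correlations at equal numbers go with lower ones at unequal numbers. That contrast is partly built in, and pairing comes from the values, not the labels. Alternatives were DESeq2 1.42.0, limma 3.58.1 (voom, and log2(TPM + 1) or log2(TPM + 0.1)), other scalings, no filter and left-out libraries. The steps were tested on simulated data. Named genes are the 10 kinases, the key genes of each list, list genes passing in either fit, and those most like the kinases in profile, without predicted or clone-named genes. Members and lists were chosen with earlier results of these data known. Map2 and Bora, 2 further genes of the lists, were not analysed here. Promoter windows are RefSeq sequence.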

Additional observations from a re-analysis of the deposited data

How the results depend on the processing

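The median log2 fold change of the 10 kinases was above 0 in every fit run, from 0.72 without Nanog+E-cadherin- replicates 2 and 3 to 1.26 without Nanog+E-cadherin- replicate 1, and no kinase changed direction in any. With 1 library left out it was lowest, at 0.86, when that was Nanog+E-cadherin+ replicate 1, without which Pbk fitted 0.40 against 0.79 with all libraries. Counts of calls depended on the design and the tool. With the replicate block edgeR called 41 genes, 4 of the kinases and 6 genes of the pathway lists, against 0 of each with group only. DESeq2's Wald test called 21, 1 and 4 with group only and 304, 9 and 26 with the block. With the block and without both libraries of 1 replicate number, edgeR called 139 (without number 2) to 510 genes (without number 3), 194 without number 1, between 4 and 10 of the kinases (5 without number 1), and 8 to 36 list genes (12 without number 1). All of those kinases were higher, and Cdk1, Plk1, Aurka and Nek2 were among them each time. Without number 1 Ttk was added, and without number 3 all 10 passed. These fits have fewer libraries to estimate the spread, so more calls in them are no stronger evidence than the calls with all libraries. The SE of Cdk1 was 0.26, 0.25 and 0.14 without numbers 1, 2 and 3, against 0.16 with all libraries. Without a filter on low counts 1 gene was called and 0 kinases. Other scalings, limma-voom, both TPM scales, leaving out any single library with group only, and leaving out Nanog+E-cadherin- replicates 2 and 3 called 0 genes. The cause of these differences was not tested. A single left-out library leaves its replicate number in 1 group. Depth limits Ttk most, with 84.0 expected counts in its lowest library.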
